A study of Mus musculus with 2 samples.

Results

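The genes described here encode the machinery that releases calcium inside heart muscle cells: the ryanodine receptors Ryr1, Ryr2 and Ryr3, the calsequestrins Casq1 and Casq2, the anchoring proteins from Trdn and Asph, the junctophilins Jph1 and Jph2, and Hrc. These 10 genes were taken by symbol from the 55536 mouse gene rows of the deposited tables, and all 10 were found. Total RNA was sequenced from the heart of 2 male B6CASTF1/J mice, adult F1 hybrids of the C57BL/6J and CAST/EiJ strains aged 8 to 10 months, with no genetic change or treatment in the labels. Each library was made from 300 ng of RNA depleted of ribosomal RNA, with a kit that keeps strand and with ERCC spike-in RNA added. The labels number the animals 2 and 4, here replicate 1 and replicate 2, but give both the same donor entry, so the spread between them may in part be technical. They are a single group, so levels, transcript shares and the difference between the animals could be measured, and no condition could be compared. An exact two-sided test over 2 libraries cannot give a p below 0.5, and no p-value is given.

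In a heart muscle cell, calcium that enters through voltage-gated channels opens ryanodine receptors in the facing membrane of the sarcoplasmic reticulum, the internal calcium store, and the released calcium starts contraction. Calsequestrin and the histidine-rich protein Hrc bind calcium inside the store, triadin and junctin hold calsequestrin near the channel, and junctophilins tie the store to the cell surface membrane. The channel, calsequestrin and junctophilin each exist as paralogs, and Ryr2, Casq2 and Jph2 are known as the cardiac ones.

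The libraries held 42.05 M and 39.98 M expected counts on mouse genes, and the 10 genes took 0.654% and 0.696% of all counts. All 8 cardiomyocyte markers were at 500 TPM or above in both libraries, as the heart label calls for. TPM is transcript abundance corrected for length and scaled to a fixed sum per library, of which the mitochondrial genome took 36.3% and 36.5%. A separate table per library, made with another program and called the second quantification below, was used beside the main one.

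The release complex of these hearts was led by 3 transcripts at nearly equal levels, those of Hrc, Ryr2 and Casq2, followed by Jph2, Trdn and Asph, while the skeletal muscle paralogs lay far below. Of the 10 genes, 8 reached 1 TPM in both libraries, and 48.9% of the 22015 nuclear protein-coding genes did so. The exceptions were Ryr1 and Ryr3. Hrc, Ryr2, Casq2, Jph2 and Trdn lay above 100 TPM in both libraries, a level at which the share of all genes was not taken. These 5 genes stood among the first 500 of the 22015 nuclear protein-coding genes by mean TPM. Since bulk tissue was sequenced, fewer cells of a type and less RNA per cell cannot be told apart in any of these levels.

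**Figure D1:**
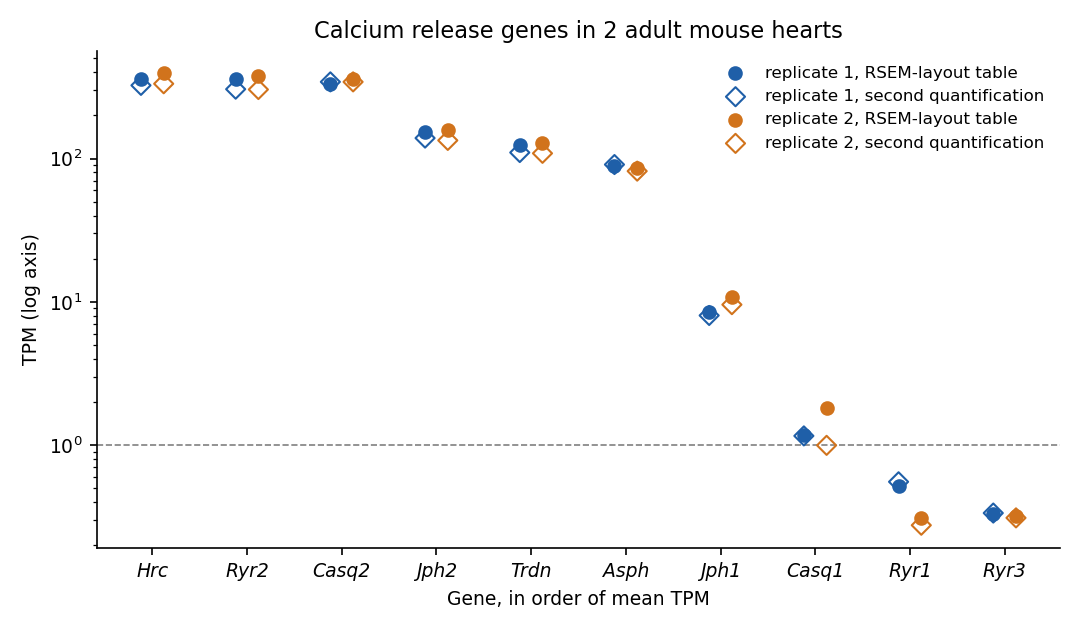
TPM of the 10 genes in each library on a log axis, in order of their mean, with filled circles for the main quantification and open diamonds for the second quantification; the dashed line marks 1 TPM. Hrc, Ryr2 and Casq2 lie between 303 and 393 TPM in every library and quantification, and Ryr1 and Ryr3 stay below 1 TPM.

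Ryr2, the cardiac release channel (ENSMUSG00000021313.16, mm10 chr13:11553102-12106945, minus strand), measured 358 TPM in replicate 1 and 376 TPM in replicate 2. Its mean was 367 ± 12.6 TPM (SD, n = 2), which ranked 145 among protein-coding genes. By counts it ranked 6, with 180886 and 183008, because its longest transcript runs to 16814 nucleotides and a long RNA yields many reads per copy. In the second quantification it stood lower, at 305 and 303 TPM.

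Ryr1, the channel of skeletal muscle (ENSMUSG00000030592.18, chr7:29003344-29125179, minus strand), was listed at 0.52 and 0.31 TPM, or 0.415 ± 0.148 TPM. Its counts were 141 and 157, so the animal with the higher TPM had fewer counts. The effective length used to turn counts into TPM differed between the libraries, at 7865 nucleotides in replicate 1 and 15252 in replicate 2. In replicate 1 the short retained-intron transcript Ryr1-203 was given 48.5% of the gene's TPM from 8.07 counts, and in replicate 2 it was given 0. Of its 1028 exon bases, 927 also belong to the full-length transcript Ryr1-202, so few reads can tell the transcripts apart. The TPM difference between the animals therefore came with a different split between transcripts, and the counts differed little.

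Ryr3, a channel expressed at low levels in many tissues (ENSMUSG00000057378.15, chr2:112631355-113217096, minus strand), was listed at 0.33 and 0.32 TPM from 125 and 114 counts. Its range overlapped that of Ryr1, and these neighbours in the order of levels could not be separated. The deposited bounds of the Ryr3 TPM, of unstated coverage, ran from 0.39 to 2.90 and from 0.38 to 3.01. They lay above the listed values and included 1 TPM, so the level of Ryr3 is loosely fixed. The end of Ryr3 overlaps Aven, a gene on the opposite strand, which measured 6.60 and 7.26 TPM. The strand setting of the counting is not given in the sources used here.

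Ryr2 exceeded Ryr1 by 9.40 and 10.20 on the log2(TPM + 0.01) scale, a mean of 9.80 ± 0.56 or 890-fold. It exceeded Ryr3 by 10.04 and 10.15, a mean of 10.10 ± 0.08 or 1095-fold. That SD is the spread of the 2 libraries and leaves out the counting error of the few Ryr3 counts. Ryr2 thus held 99.8% of the TPM of the ryanodine receptors in each library. Exact matches of 31 bases between the paralogs were rare. Of the 21943 distinct stretches of 31 bases in the Ryr1 transcripts 5 also occurred in Ryr2, and 0 of the 19146 of Ryr3 did.

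Hrc, the histidine-rich calcium-binding protein of the store (ENSMUSG00000038239.11, chr7:45335290-45338974, plus strand), measured 359 and 393 TPM, with a mean of 376 ± 23.6. It was the most abundant of the 10 transcripts by this mean. Its range overlapped that of Ryr2, so their order is not settled by these animals.

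Casq2, the cardiac calsequestrin (ENSMUSG00000027861.13, chr3:102086415-102146514, plus strand), followed at 331 and 357 TPM, a mean of 344 ± 18.5. Its highest value fell just short of the lowest of Ryr2. In the second quantification Casq2 was at 342 TPM in each library and led all 10 genes, above Hrc at 324 and 332 TPM. Of the Casq2 level there, 43.7 and 38.3 TPM went to Casq2-202, a short processed transcript at 0 in the main quantification. The coding transcript Casq2-201 held 298 and 303 TPM, below Hrc. The order among Hrc, Ryr2 and Casq2 therefore depended on the quantification.

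Casq1, the calsequestrin of fast skeletal muscle (ENSMUSG00000007122.11, chr1:172209894-172219868, minus strand), was listed at 1.18 and 1.81 TPM from 64 and 60 counts. Here too TPM and counts moved in opposite directions. The effective length was 1557 nucleotides in replicate 1 and 1009 in replicate 2, where the fragment Casq1-203 was given 42.3% of the gene from 9.88 counts. The second quantification gave that fragment 0 and listed Casq1 at 1.16 and 0.998 TPM.

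Casq2 exceeded Casq1 by 8.12 and 7.62 on the log2(TPM + 0.01) scale, a mean of 7.87 ± 0.36 or 234-fold. In the second quantification the difference was larger, at 8.30 or 315-fold. Casq2 held 99.6% of the TPM of the pair, and its transcripts shared none of the 31-base stretches of Casq1.

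The 250 bases before the RefSeq start of each calsequestrin gene are shown, on GRCm38.p6, as an example of paralogs far apart in level. For Casq1 the window does not adjoin the gene span given above, since the RefSeq and GENCODE starts differ. Capitals mark a match to the motif of the MEF2 factors, a family of muscle transcription factors.
Casq2, chr3:102086165-102086414, plus strand: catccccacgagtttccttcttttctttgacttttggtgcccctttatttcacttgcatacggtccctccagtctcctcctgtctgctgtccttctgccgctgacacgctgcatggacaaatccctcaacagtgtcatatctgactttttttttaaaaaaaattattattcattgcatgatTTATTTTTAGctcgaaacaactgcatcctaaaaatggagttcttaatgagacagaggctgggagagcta
Casq1, chr1:172219896-172220145, minus strand: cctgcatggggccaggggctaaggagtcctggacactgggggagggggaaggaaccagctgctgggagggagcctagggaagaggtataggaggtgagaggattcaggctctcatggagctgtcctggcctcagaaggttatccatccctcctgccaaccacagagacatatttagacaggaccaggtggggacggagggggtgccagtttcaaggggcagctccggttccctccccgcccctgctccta

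The Casq2 window held 1 MEF2 match, which begins 69 bases before the start. No MEF2 match was found in the windows of Casq1, Ryr1, Ryr2, Jph2 and Hrc. Such a match, searched on both strands, was present in 2.92% of the 32851 RefSeq windows of that length. The CArG motif of serum response factor is in 1.47% of all windows and TATAAA in 12.4%. Both were absent from the Casq2 window and from those of Casq1, Ryr1, Ryr2, Jph2 and Hrc. CANNTG, the core that myogenic and other helix-loop-helix factors read, was in all of these windows except that of Ryr1, and in 66.2% of all windows. The Casq2 window had a GC content of 41.6%, while the others ranged from 54.8% to 63.2%. These are matches of letters and show no binding.

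Jph2, the cardiac junctophilin (ENSMUSG00000017817.11, chr2:163336242-163397993, minus strand), measured 153 and 158 TPM, a mean of 155 ± 3.04. Jph1, the skeletal muscle form (ENSMUSG00000042686.5, chr1:16964560-17097889, minus strand), measured 8.49 and 10.7 TPM from 1391 and 1661 counts. Jph1 was thus well above the level of Ryr1 and Casq1, and it differed from both by more than the spread between the animals. Jph2 exceeded Jph1 by 4.17 and 3.87 on the log2(TPM + 0.01) scale, a mean of 4.02 ± 0.21 or 16.3-fold. With the neuronal members Jph3, at 0 and 3 counts, and Jph4, at 7 and 4 counts, the family gave Jph2 94.7% and 93.6% of its TPM. Both Jph1 and Jph2 came from a single transcript each, Jph1-201 and Jph2-201, with 100% of the gene in each library.

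Markers of skeletal muscle, where Ryr1, Casq1 and Jph1 are the main forms, were read beside these genes. Of the 13 markers, 9 reached 1 TPM in both libraries, beside 48.9% of nuclear protein-coding genes. The markers summed to 30.6 and 33.0 TPM, and none was at 0 in both. The highest by mean was Cacna1s, the voltage sensor of skeletal muscle, at 6.76 and 5.89 TPM. Mybpc2, a fast myosin-binding protein, was at 5.36 and 6.29 TPM, and Tnnt1, the slow troponin T, at 4.31 and 5.29 TPM. Tnnt3 was at 2.64 and 2.51 TPM, Atp2a1 at 2.37 and 2.61 TPM, and Mylpf at 2.17 and 2.36 TPM. Their part in the levels of Ryr1, Casq1 and Jph1 was not tested.

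Trdn encodes triadin (ENSMUSG00000019787.9, chr10:33080554-33476709, plus strand), a membrane protein of the store that binds the channel and calsequestrin. It measured 124 and 128 TPM, a mean of 126 ± 2.64, or on average 0.34 TPM per TPM of Ryr2. It has 8 annotated transcripts, of which 6 share a start codon and 4 have an annotated stop codon of their own, so the reading frames begin alike and end differently. The shared start and the ends of the transcripts with at least 5% of the gene are shown with the start or stop codon in capitals, coding strand, from the GENCODE M21 transcripts.
Trdn start, chr10:33083724-33083726: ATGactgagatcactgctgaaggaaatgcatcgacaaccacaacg
Trdn-202 end, chr10:33200255-33200257: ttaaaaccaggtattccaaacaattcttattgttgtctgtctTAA
Trdn-208 end, chr10:33196170-33196172: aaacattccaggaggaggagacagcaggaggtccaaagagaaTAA
Trdn-201 end, chr10:33474516-33474518: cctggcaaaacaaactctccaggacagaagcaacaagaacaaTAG

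A short triadin led in these hearts. Trdn-202, which encodes 293 residues, held 62.1% of the gene's TPM in replicate 1 and 61.4% in replicate 2, a mean of 61.8 ± 0.47%. Of its 879 coding bases, 847 are also coding in Trdn-201 and 32 are not. Trdn-201, the longest form with 693 residues, held 8.65% and 10.2%. Trdn-208, with 277 residues, held 5.40% and 6.08%.

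The remaining large share belonged to Trdn-204, annotated as a retained intron with no reading frame, at 20.0% and 20.1%. It is a single exon of 1665 bases, of which 207 are shared with Trdn-202. Over protein-coding transcripts alone, Trdn-202 held 77.3%. By counts, which favour long transcripts, Trdn-202 held 40.4% and Trdn-201 25.1%. The second quantification kept the same leading order for Trdn-202, Trdn-204 and Trdn-201. It gave Trdn-202 less, at 56.2% and 55.1%, and both Trdn-201 (11.8% and 13.2%) and Trdn-208 (10.7% and 10.9%) more. In each quantification the animals differed by less than the quantifications did for Trdn-202, Trdn-204 and Trdn-208.

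**Figure D2:**
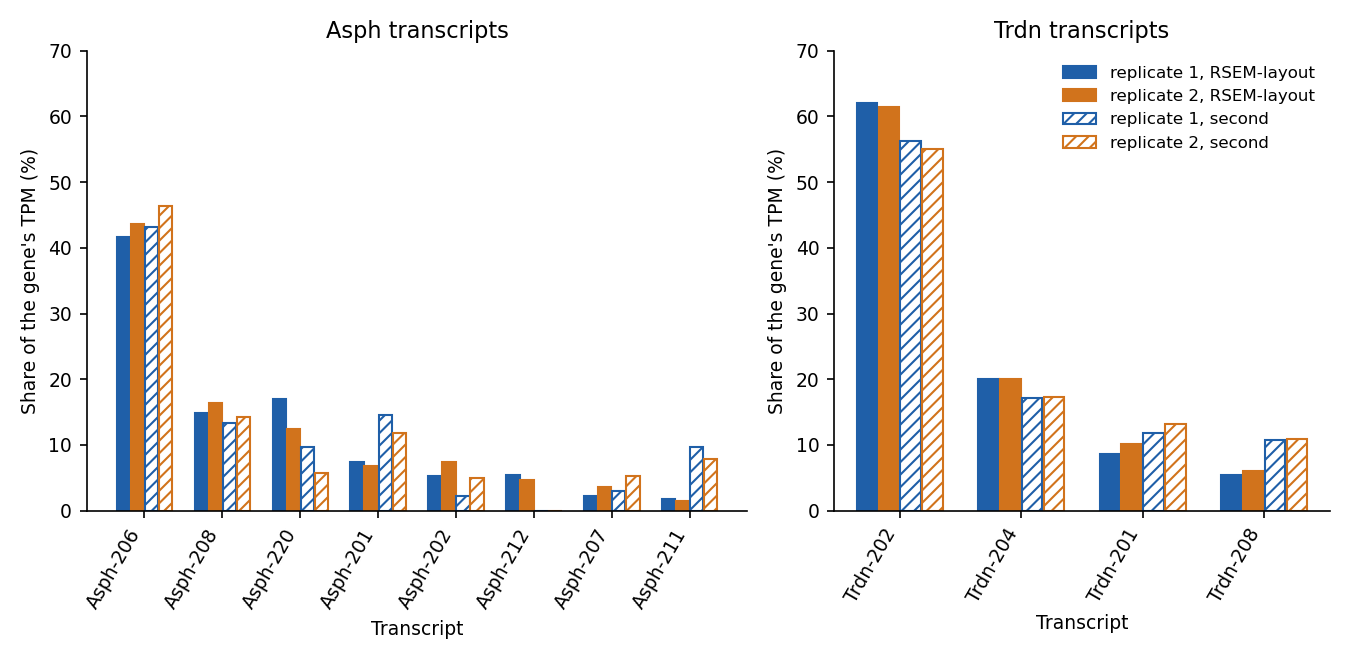
Share of each gene's TPM, in percent, for the Asph and Trdn transcripts that hold at least 5% in any library of either quantification; filled bars are the main quantification, hatched bars the second quantification, and colours the 2 animals. Asph-206 and Trdn-202 lead in all 4 sets of bars, while the smaller Asph transcripts shift between quantifications.

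Asph (ENSMUSG00000028207.18, chr4:9448069-9669344, minus strand) encodes several proteins from one locus: aspartate beta-hydroxylase, an enzyme of the endoplasmic reticulum, and the shorter junctin and junctate, which lack the enzyme domain. It measured 88.8 and 85.5 TPM, a mean of 87.1 ± 2.35. The annotation holds 20 transcripts with 3 start codons and 4 stop codons. They are shown because the combination of start and stop sets which of these proteins a transcript can encode. Start or stop codons are in capitals, on the coding strand.
Start of Asph-201, chr4:9668908-9668910: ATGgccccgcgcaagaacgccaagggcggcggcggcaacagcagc
Start of Asph-206, chr4:9643548-9643550: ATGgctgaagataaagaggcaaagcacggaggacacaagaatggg
Start of Asph-211, chr4:9639274-9639276: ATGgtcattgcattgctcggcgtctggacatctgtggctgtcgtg
End of Asph-217, chr4:9630708-9630710: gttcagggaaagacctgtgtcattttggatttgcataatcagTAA
End of Asph-206, chr4:9621880-9621882: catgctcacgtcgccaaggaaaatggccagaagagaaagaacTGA
End of Asph-208, chr4:9576966-9576968: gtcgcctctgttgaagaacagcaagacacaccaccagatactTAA
End of Asph-202, chr4:9453295-9453297: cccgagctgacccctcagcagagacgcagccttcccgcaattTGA

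Most Asph TPM in these hearts belonged to transcripts whose annotated reading frame begins at the start codon of Asph-206, which lies inside the gene, and most belonged to transcripts with an annotated stop codon before the enzyme part. Translation itself was not measured. The 5 transcripts with that start codon held 76.6% and 77.0% of the gene's TPM, a mean of 76.8 ± 0.25%. The 8 transcripts with the upstream start of Asph-201 held 20.1% and 20.2%. The 2 with the start of Asph-211 held 1.85% and 1.42%. By counts the internal start took 56.4% and the upstream start 37.4%. In the second quantification the internal start held 71.0 ± 1.59% and the upstream start 18.7 ± 0.48%, while the start of Asph-211 held 8.71 ± 1.29%. The internal start led in each library and quantification.

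By stop codon, the end of Asph-206 held the most TPM, with 49.1% and 50.4%, a mean of 49.8 ± 0.86%. The end of Asph-208 held 18.0% and 20.9%. The full-length end, which 3 transcripts share and which alone includes the enzyme part at the carboxyl end, held 12.5% and 13.5%, a mean of 13.0 ± 0.71%. By counts the full-length end led with 37.3%, because its transcripts exceed 6 kilobases, and the end of Asph-206 took 34.5%. In the second quantification the end of Asph-206 held 57.9 ± 0.19% of the TPM and the full-length end 12.2 ± 0.66%. Transcripts with no annotated stop codon held 18.4% and 13.8%.

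**Figure D3:**
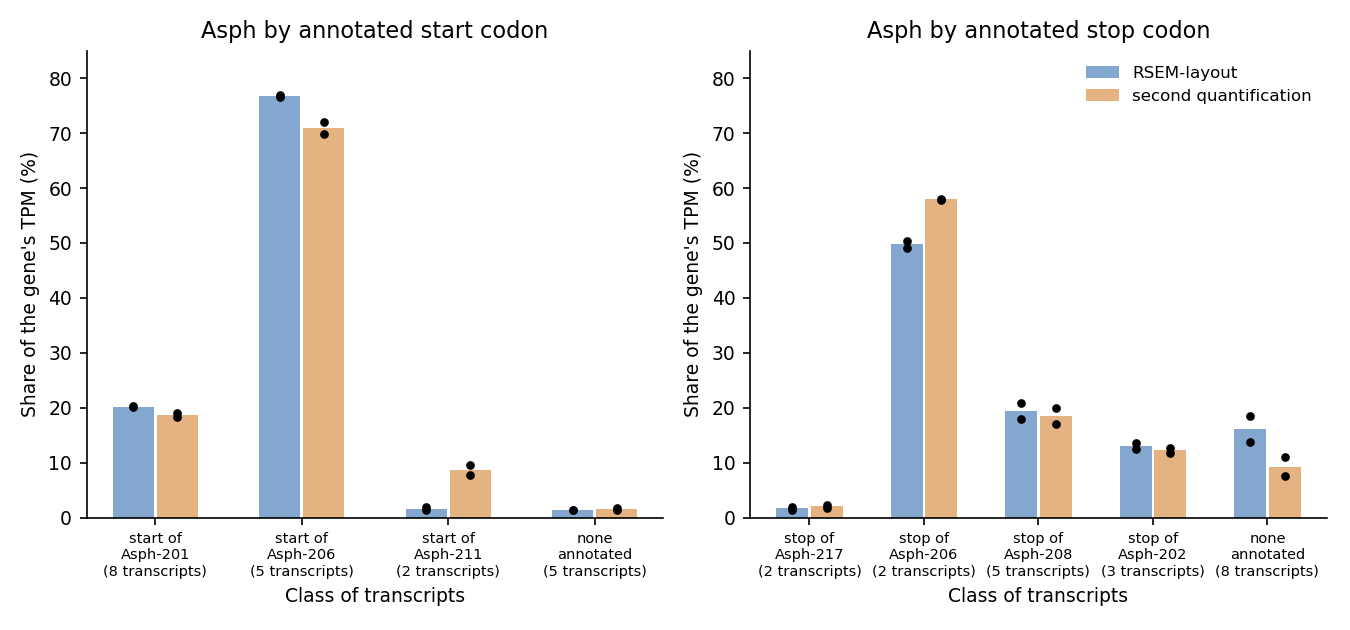
Share of the TPM of Asph, in percent, summed over transcripts with the same annotated start codon (left) or stop codon (right); bars are means of the 2 libraries, dots the libraries, and colours the 2 quantifications. The start of Asph-206 holds 76.8% and 71.0% in the quantifications, and the full-length stop of Asph-202 holds 13.0% and 12.2%.

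Among single transcripts of Asph, Asph-206, with 207 residues and the internal start, led at 41.7% and 43.6%, a mean of 42.6 ± 1.37%, and at 43.2% and 46.3% in the second quantification. Of its 621 coding bases, 219 are also coding in the full-length Asph-202 and 402 are not. Asph-208, with 272 residues, held 14.8% and 16.4% and shares 795 of its 816 coding bases with Asph-202. Asph-207, a close form of 261 residues, held 2.28% and 3.64%, and 2.99% and 5.23% in the second quantification.

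Asph-201, which joins the upstream start to the end of Asph-206, held 7.47% and 6.74% in the main quantification and 14.6% and 11.8% in the second. Asph-220, a fragment with the internal start and no annotated stop, moved the other way, from 16.98% and 12.5% to 9.65% and 5.76%. The 3 full-length transcripts also shifted. Asph-202 held 5.20% and 7.40% in the main quantification and 2.15% and 4.90% in the second. Asph-212, whose exon bases all lie within Asph-202, went from 5.44% and 4.68% to near 0. Asph-211 went from 1.84% and 1.41% to 9.62% and 7.80%. Their summed TPM moved little, from 11.1 and 11.5 to 10.7 and 10.4.

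Transcripts of the other genes were mostly of one kind. Ryr2-201, the full-length channel of 4966 residues, held 83.5% and 85.8% of Ryr2, and 89.9% and 91.2% in the second quantification. Hrc-201, encoding 738 residues, held 98.8% and 98.7% of Hrc. Casq2-201, encoding 415 residues, held 93.8% and 97.0% of Casq2 in the main quantification and 87.1% and 88.4% in the second. Casq1-201 held 77.9% and 38.4% of Casq1, less in replicate 2 than the fragment Casq1-203, a split that rests on the few counts given above. For Ryr1 and Ryr3 the leading transcript changed with the library and the quantification. Ryr1-201 held 0% and 100% of Ryr1, and Ryr1-202, which shares 15343 of its 15358 exon bases, held 40.2% and nearly all in the second quantification. Ryr3-211 held 0% and 67.5% of Ryr3, and Ryr3-201 held 14.8% and 55.7% in the second quantification.

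Between the animals each release complex gene differed by less than 2-fold in scaled counts, as did nearly all genes tested. Counts were scaled with the TMM method, and a gene was taken to differ when its summed counts reached 200, the scaled ratio reached 2-fold and the exact Clopper-Pearson counting interval of the ratio, which leaves 0.1% of counting outcomes outside, excluded 1. None of the 9 genes that could be tested met this rule, beside 1.08% of all 10960 genes tested. With so low a share over all genes, none of 9 does not set the release complex apart. Casq1, with 124 summed counts, was not tested. The interval covers counting error only and includes no variation between animals. With TMM scaling it excluded 1 at any fold for 4 of the 9, and for 18.1% of all genes tested. The 4 were Hrc, Ryr2, Casq2 and Jph1, all with more in replicate 2. Spike-in scaling, with which no interval was taken, put their log2 ratios at 0.05, 0.02, 0.03 and 0.26 in that order. The interval narrows as counts rise, and Hrc, Ryr2 and Casq2 lie among the first 100 protein-coding genes by counts.

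The median absolute log2 ratio was 0.08 over the 9 genes and 0.11 over all genes tested. Jph1 differed most among the 9 and was 1.24-fold higher in replicate 2, a log2 ratio of 0.31 with an interval of 0.14 to 0.48. Over all genes the middle 90% of log2 ratios lay between -0.40 and 0.33, so Jph1 was near the upper edge of that range. Hrc stood at 0.10, Casq2 at 0.08, Trdn at 0.08 and Ryr2 at 0.07. Asph and Jph2 were within 0.01 of 0, and their sign turned with DESeq2 size factors and with spike-in scaling. Ryr1 stood at 0.21 with an interval of -0.35 to 0.77 and Ryr3 at -0.08 with one of -0.71 to 0.55, so no difference of either was detectable at this depth.

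**Figure D4:**
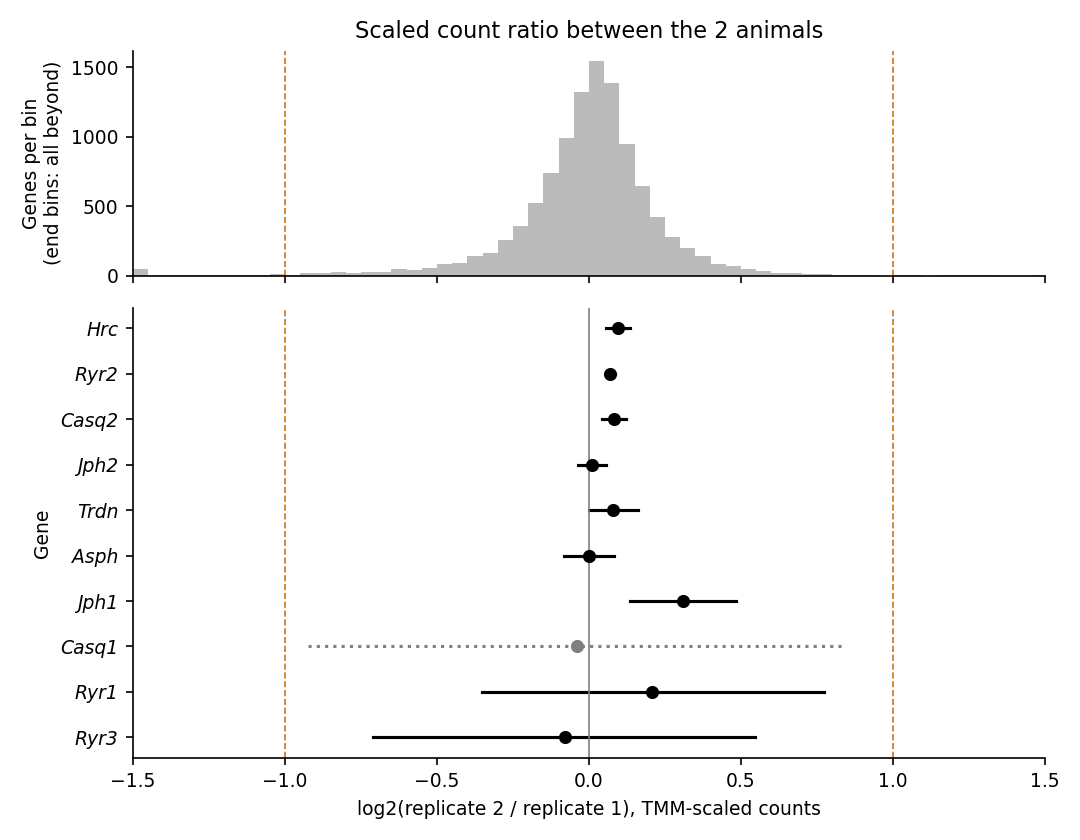
Log2 ratio of replicate 2 over replicate 1 from TMM-scaled counts. Top: number of genes per bin of 0.05 among all 10960 genes with 200 or more summed counts, with genes beyond 1.5 in the end bins; bottom: the 10 genes with their counting intervals, dotted for Casq1, which had too few counts to be tested. Dashed lines mark 2-fold, and all 10 points lie between them.

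Markers of cell types moved in both directions between the animals. All 8 cardiomyocyte markers were higher in replicate 2, with log2 ratios from 0.07 for Myl2 to 0.21 for Nppa. The median over all genes tested was 0.014. Ptprc, a marker of white blood cells, met the rule in the other direction with 3.03 and 1.21 TPM. Hemoglobin RNA was also higher in replicate 1, at 4229 and 2272 TPM for Hbb-bs and 3872 and 2119 TPM for Hba-a1, each below 2-fold on scaled counts. The endothelial markers were mixed, with log2 ratios of 0.11 for Cdh5, -0.17 for Pecam1 and -0.13 for Kdr. Nerve and Schwann cell markers summed to 8.40 and 6.84 TPM. Smooth muscle and mural markers summed to 613 and 627 TPM, most of it Des (440 and 468 TPM), which heart muscle cells also express. The median of that list was lower in replicate 2, at 20.5 and 12.8 TPM. That median was the value of Tagln in both libraries, and Acta2 was also lower in replicate 2, at 27.6 and 21.4 TPM. Pdgfrb went the other way, at 7.73 and 10.7 TPM. The part of cell makeup in the ratios of the release genes was not tested.

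Partners of the channel were mostly present. Of the 22 proteins on that list, which bind or modify the ryanodine receptor or sit in the same membrane, 17 reached 1 TPM in both libraries. Over all nuclear protein-coding genes that share was 48.9%. None of the 17 partners tested differed between the animals, beside 1.08% of all genes tested. The list's median was 38.1 ± 0.11 TPM against 107 ± 0.14 TPM for the release complex. S100a1, a calcium sensor that binds the channel, was at 378 and 406 TPM. Srl, the luminal calcium-binding protein sarcalumenin, was at 304 and 352 TPM. Tmem38a, a potassium channel that balances charge during release, was at 177 and 197 TPM.

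Prkaca, the catalytic subunit of protein kinase A, was at 125 and 134 TPM. The FK506-binding partners of the channel were far apart. Fkbp1a, encoding FKBP12, was at 67.1 and 69.9 TPM from 3217 and 3036 counts, while Fkbp1b, encoding FKBP12.6, was at 0.33 and 0.07 TPM from 10 and 2 counts. FKBP12.6 is known as the form with the higher affinity for the cardiac channel.

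The pathway around the release complex was read as a list of calcium entry, extrusion and uptake genes. Their levels ran from 0.23 to 4226 TPM in replicate 1 and from 0.02 to 4630 TPM in replicate 2. In this list 14 of 17 reached 1 TPM in both libraries, beside 48.9% of nuclear protein-coding genes. None of the 15 tested differed between the animals, beside 1.08% of all genes tested. Atp2a2, the pump that refills the store, was at 4226 and 4630 TPM, and its inhibitor Pln at 2802 and 3027 TPM. The sodium-calcium exchanger Slc8a1 was at 178 and 191 TPM. The entry channel subunit Cacna1c, whose calcium opens Ryr2, was at 79.2 and 89.8 TPM, and its partner Cacna2d1 at 32.9 and 38.0 TPM. Sln, an inhibitor of the pump mainly of atrial muscle, was at 25.5 and 33.1 TPM.

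Other intracellular release channels were lower than Ryr2. That list also holds calcium-binding proteins of the general endoplasmic reticulum. Of its 11 genes, 9 reached 1 TPM in both libraries, beside 48.9% of nuclear protein-coding genes. None of the 9 tested differed, beside 1.08% of all genes tested. The inositol trisphosphate receptor Itpr1 was at 12.9 and 14.1 TPM, Itpr2 at 7.75 and 6.45 TPM, and Itpr3 at 2.04 and 1.99 TPM. The endosomal channel Tpcn1 was at 12.1 and 12.6 TPM. Among the binding proteins, Hspa5 was at 236 and 209 TPM, Canx at 115 and 116 TPM, Calr at 115 and 105 TPM and Calr3 at 7.46 and 8.79 TPM. Each lay below Casq2 in both libraries.

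**Figure D5:**
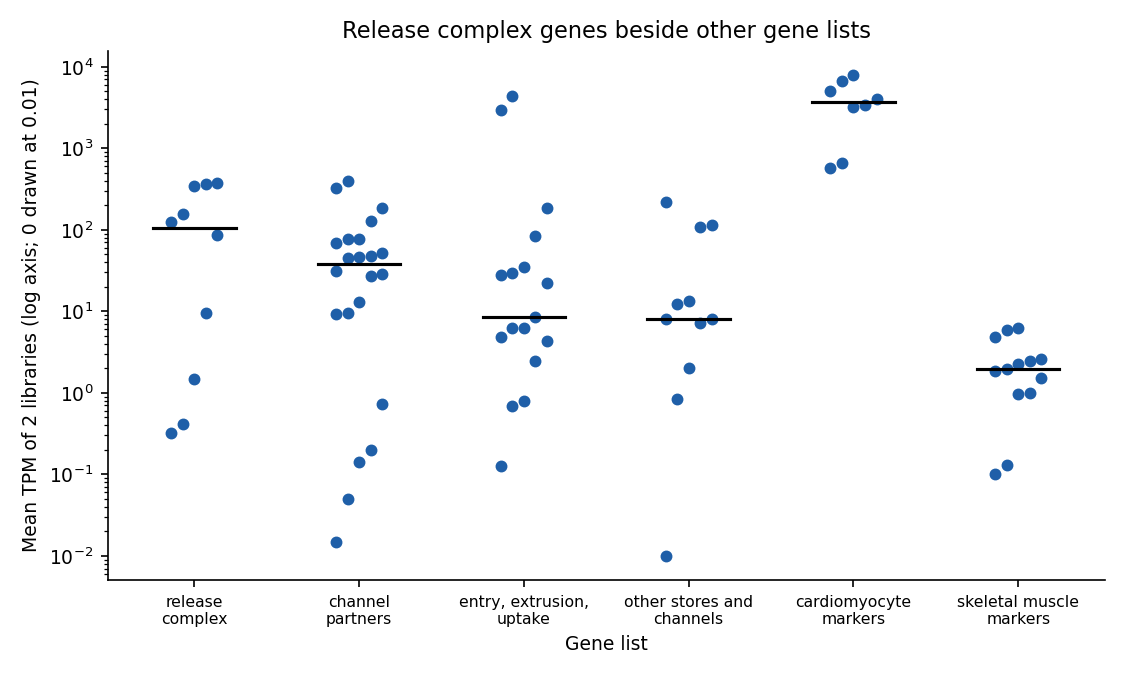
Mean TPM of 2 libraries for each gene of 6 lists, on a log axis with 0 drawn at 0.01; each dot is a gene and each black line the median of the list. The 10 release complex genes split into 6 above 80 TPM and 4 below 11 TPM, and the skeletal muscle markers all lie below 7 TPM.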

How the data were processed

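Per the file headers, the gene and transcript tables of the main quantification have the column layout that RSEM writes, and the authors deposited expected counts, TPM and FPKM in them, together with transcript shares of a gene in percent. Per the file headers, the second quantification has the kallisto layout, with deposited estimated counts and TPM. Assembly mm10 and GENCODE M21 are given by the listings deposited with the files. No source used here names the aligner or the tool versions.

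Gene TPM of the second quantification was summed over transcripts. Expected counts were rounded, and libraries were scaled with TMM in edgeR 4.0.16, with DESeq2 1.42.0 size factors as an alternative. The steps ran in Python 3.11.15 (pandas 2.3.3, scipy 1.17.1) and R 4.3.3. Only the scaling, the counting interval and the rule for differing genes were tested on simulated data. The planted changes were larger than the 2-fold cut, so changes near the cut were not tested. Totals were 42.13 M and 40.07 M counts, and intervals are exact Clopper-Pearson intervals of counting error alone. Amplified copies cannot be recognised, as there were no molecular identifiers. Means are given ± SD over 2 libraries.

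The members, lists and rules were chosen with earlier results of these data known. All 10 members are named, with up to 6 genes of each pathway list and of the skeletal muscle list by mean TPM, list genes that differed between the animals, and, whatever their level, Jph3, Jph4, Itpr1, Itpr2, Itpr3, Fkbp1a, Fkbp1b and S100a1. Some partner genes that this rule names are not reported here. Transcripts of Asph and Trdn are named from 5% of the gene upward in any library. Ryr1-203, Casq1-203, Cdh5, Pecam1, Kdr, Tagln, Acta2 and Pdgfrb were named after their values were seen. Of 18 symbols on the calcium entry list, 17 matched (Dwor did not). Sequences came from the GENCODE M21 transcripts and RefSeq on GRCm38.p6, which has upstream windows for Ryr1, Ryr2, Casq1, Casq2, Jph2 and Hrc.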

Additional observations from a re-analysis of the deposited data

How the results depend on the processing

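The count of members at 1 TPM or above was 8, and it was 8 at a threshold of 0.5 TPM and 6 at 10 TPM. It was 7 in the second quantification, where Casq1 in replicate 2 fell just below the threshold. The share of all protein-coding genes was taken only at 1 TPM in the main quantification. No member differed between the animals under the 6 alternatives run (DESeq2 size factors, total counts, no count filter, a filter of 50 counts, 1.5-fold, the second quantification). With a pseudocount of 1 TPM the log2 excess of Ryr2 over Ryr1 became 8.03, that of Ryr2 over Ryr3 8.12 and that of Casq2 over Casq1 7.12. The added value exceeds the levels of Ryr1 and Ryr3 and is large beside the 1.18 and 1.81 TPM of Casq1. The second quantification gave 9.83 for Ryr2 over Ryr3 and 8.30 for Casq2 over Casq1. Expected counts without correction for length gave 10.57 and 8.84 for these pairs. Counts per kilobase of the longest transcript, an alternative chosen after seeing the data, gave 10.45 and 8.37. Without 1 of the replicates, Ryr2 over Ryr1 ranged from 9.40 to 10.20, Ryr2 over Ryr3 from 10.04 to 10.15, Casq2 over Casq1 from 7.62 to 8.12 and Jph2 over Jph1 from 3.87 to 4.17. All 4 pairs kept their direction under every alternative run. The leading share of Asph was 44.7% in the second quantification and 31.2% by expected counts. That of Trdn was 55.7%, 40.4% and, over protein-coding transcripts, 77.3%. Leaving out a replicate gave 41.7% to 43.6% for Asph and 61.4% to 62.1% for Trdn. TPM rescaled over nuclear protein-coding genes raised each member's level by 2.75 to 2.77 times. By scaled counts 8 members were higher in replicate 2, as with total counts, and 6 were with DESeq2 size factors or spike-in counts. Over all genes tested the median log2 ratio was 0.014 with TMM scaling, and the share above 0 was not taken. No paired analysis was possible because the series holds a single group.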

Other observations

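Some annotated RNAs of these genes outside the main forms carried reads. Ryr2-203, a short Ryr2 transcript with a frame of 1020 residues, was at 34.2 and 31.5 TPM, or 9.57% and 8.39% of the gene. Of its 3060 coding bases, 3045 are also coding in the full-length Ryr2-201. The second quantification gave Ryr2-203 7.60 and 6.60 TPM, or 2.50% and 2.18%. Casq2-202, a processed transcript with 560 of its 628 exon bases in Casq2-201, was at 0 in the main quantification and at 43.7 and 38.3 TPM in the second, or 12.7% and 11.2% of Casq2. Both transcripts were named after their values were seen.

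Overlapping genes were read beside the members, also after their values were seen. D830005E20Rik, an antisense gene inside Trdn (chr10:33222345-33256418, opposite strand), held 530 and 497 counts, or 9.41 and 9.22 TPM. Clvs1, which meets the end of Asph from the opposite strand, held 228 and 164 counts. Inside Ryr2 on the same strand, Gm47493 held 220 and 197 counts and Gm47494 held 55 and 68. Transcripts not annotated as protein-coding took 3.65 ± 0.55% of the TPM of Ryr2, 20.1 ± 0.04% of that of Trdn and 1.40 ± 0.04% of that of Asph. For the members with few counts they took 51.9% and 0% of Ryr1, 33.3% and 34.4% of Ryr3 and 20.6 ± 1.98% of Casq1. For Casq2 they took 0.074% on average in the main quantification and 12.7% and 11.2% in the second, and for Jph1 none was listed with TPM.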
